A study of Mus musculus with 11 samples.

Results

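The 6 genes described here, Pparg, Fabp1, Fabp4, Fabp5, Plin2 and Pnpla2, were chosen by name as lipid binding and storage genes of alveolar macrophages (AMs) and of macs elsewhere, and were read from all 11 count tables, which list 27998 mouse genes. The tables hold single-cell RNA sequencing (10x Genomics, counted from the 3′ end of each transcript) of macs sorted from brain (microglia), colon (CMs), liver (Kupffer cells, KCs), lung (AMs) and spleen (SMs). Each tissue has 1 library from WT mice, which carry Zeb2 alleles flanked by loxP sites (Zeb2fl/fl) and no CRE, and 1 library from Zeb2KO mice, in which the same alleles are combined with a CRE, and liver has 1 further WT library from Nr1h3fl/fl mice without CRE. All Zeb2KO genotypes are labelled Fcgr1-crexZeb2fl/fl, whereas the study's methods give Clec4f-cre for KCs and Itgax-cre, which is active in CD11c-expressing cells, for AMs, so the CRE of the KC and AM libraries is uncertain. All WT and Zeb2KO mice of the 5 pairs share the floxed Zeb2 alleles, and the study describes the controls as littermates; mice were as a rule 6 to 8 weeks old, and the number behind each library is not given in the sources used here. A Zeb2KO library is a mixed group, since by the study's account macs of every organ but brain include cells that kept a Zeb2 allele. KCs were gated on Clec4F, CD64 and F4/80, AMs on CD11c and SiglecF as well as CD64 and F4/80, microglia on CD64 and F4/80 at intermediate CD45, and the colon and spleen cells on CD64 and F4/80 in the absence of Ly6C, Ly6G and SiglecF.

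Pparg encodes a nuclear receptor that binds DNA with RXR and switches on genes of fatty acid uptake and storage, and it is needed for AMs to form and to clear surfactant lipid. The fatty acid binding proteins carry long-chain fatty acids through the cytosol: Fabp1 is the liver form, Fabp4 the fat cell and macrophage form, and Fabp5 a widely expressed form first described in skin. Perilipin 2 (Plin2) coats lipid droplets, and Pnpla2 encodes adipose triglyceride lipase, which takes the first fatty acid from a stored triglyceride. ZEB2, the product of the deleted gene, is a zinc finger repressor that binds E-boxes of the form CACCTG.

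The libraries held 3097 to 7703 barcodes and 11133411 to 47400786 UMIs (unique molecular identifiers, each standing for 1 captured transcript). After low-quality cells and clusters of other cell types were left out, 2830 to 6974 macs per library remained, with a median of 2207 UMIs per cell in WT SMs to 9232.5 in WT CMs. Levels are given as CPM, the UMIs of a gene in every 1000000 UMIs of the macs of a library, with 95% exact Poisson intervals that cover counting error only. The fixed markers of each tissue's macs were at 20 CPM or more in their own libraries, 8 of 8 for AMs, 6 of 6 for KCs, microglia and CMs and 5 of 5 for SMs. Zeb2 itself was higher in each Zeb2KO library (476 to 1747 CPM) than in its WT partner (312 to 737 CPM), but a 3′ count also reads the shortened transcript of the deleted allele and does not show which cells lost the gene. Pairs of libraries shared at most 1.45% of the barcodes of the smaller library. With 1 library per tissue and genotype there is no replicate check within a tissue, and KCs and AMs were sequenced on another instrument (NextSeq) than the other 3 tissues (HiSeq), so instrument and tissue cannot be told apart.

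The members lie on 4 chromosomes of GRCm38. Pparg (chr6:115360951-115490399, plus strand) and Fabp1 (chr6:71199827-71205023, plus strand) share chromosome 6. Fabp5 (chr3:10012548-10016607, plus strand) and Fabp4 (chr3:10204088-10208576, minus strand) lie 187 kb apart, with 4 protein-coding genes between them (Gm9833, Pmp2, Gm37389 and Fabp9). Plin2 is at chr4:86648386-86670060 on the minus strand and Pnpla2 at chr7:141455198-141460743 on the plus strand. Fabp5 has 5 other annotated genes with at least 90% identity over 100 bases of transcript, and Plin2 has 1. The closest match of Fabp5 was a processed pseudogene, Gm6166 (99.4% over 175 bases). For Plin2 it was the unprocessed pseudogene Gm12551 (89.4% over 442 bases). Whole transcripts were compared, not only the 3′ ends that were read. How reads that match more than 1 copy were counted was not checked, so the Fabp5 and Plin2 counts carry that uncertainty.

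Promoter windows of 300 bases, 250 before and 50 after a transcription start, were given for 4 of the 6 members (RefSeq, GRCm38.p6); Fabp4 and Fabp5 had no entry. They are shown for Fabp1 and Pparg, which were called between genotypes below, and for Plin2, a known target of PPAR receptors. Capitals mark matches, on either strand, of the nuclear receptor half-site AGGTCA and of the E-box CACCTG.

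Fabp1 promoter, chr6:71199629-71199928, plus strand: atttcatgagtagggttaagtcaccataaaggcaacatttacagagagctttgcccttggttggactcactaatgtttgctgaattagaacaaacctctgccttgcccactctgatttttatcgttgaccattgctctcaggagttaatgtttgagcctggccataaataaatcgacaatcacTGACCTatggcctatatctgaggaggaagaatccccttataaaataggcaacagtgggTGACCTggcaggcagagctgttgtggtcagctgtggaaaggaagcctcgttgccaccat

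Pparg promoter of the second listed start, chr6:115362099-115362398, plus strand: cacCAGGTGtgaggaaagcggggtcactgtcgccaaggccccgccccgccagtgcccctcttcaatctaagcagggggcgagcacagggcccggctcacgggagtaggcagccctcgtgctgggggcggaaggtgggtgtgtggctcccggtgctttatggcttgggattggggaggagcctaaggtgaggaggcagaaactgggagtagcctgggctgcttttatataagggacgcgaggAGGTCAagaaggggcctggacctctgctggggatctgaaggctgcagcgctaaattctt

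Plin2 promoter, chr4:86670010-86670309, minus strand: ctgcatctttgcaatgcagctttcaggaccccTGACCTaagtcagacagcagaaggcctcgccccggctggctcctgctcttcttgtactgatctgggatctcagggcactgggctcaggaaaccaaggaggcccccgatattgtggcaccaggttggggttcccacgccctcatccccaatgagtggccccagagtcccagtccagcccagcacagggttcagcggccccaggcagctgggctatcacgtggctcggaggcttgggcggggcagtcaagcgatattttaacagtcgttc

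The Fabp1 window held 2 half-sites, with their first bases 9 and 67 bases before the start. The Pparg window held 1 half-site 9 bases before the start and 1 E-box 247 bases before it, and the Plin2 window held 1 half-site 218 bases before the start. Of the other windows, Pnpla2 (chr7:141454938-141455237) held 1 E-box, the first Pparg window (chr6:115360894-115361193) 1 half-site and the third (chr6:115421816-115422115) neither. Such letters are common: 16.3% of 32851 promoter windows held AGGTCA and 20.2% held CACCTG. An exact direct repeat of 2 AGGTCA half-sites with 1 base between them, a form of the element of PPAR and RXR, was in 13 windows (0.0396%) and in none of these. Elements with other letters were not searched, so their absence is not shown. In the Fabp1 window the half-site 67 bases before the start is followed, after 1 base, by tggcct, which is close to a second half-site.

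Pparg, the nuclear receptor, was a gene of AMs and SMs. In WT macs it stood at 108 CPM in SMs (95% interval 101 to 116), 98.4 CPM in AMs (94.7 to 102), 8.30 CPM in KCs (7.20 to 9.53; 7.83 CPM in Nr1h3fl/fl KCs) and 6.04 CPM in CMs, and it had 0 UMIs in microglia, which allows up to 0.243 CPM. SMs stood 1.10-fold above AMs (ratio interval 1.02 to 1.19), and AMs stood 11.9-fold above KCs. In Zeb2KO macs it stood at 92.4 CPM in SMs, 91.4 CPM in AMs, 20.04 CPM in KCs, 3.21 CPM in CMs and 0 UMIs in microglia (up to 0.177 CPM), so the order of tissues stayed as in WT, except that SMs and AMs no longer differed beyond counting error (1.01-fold, 0.938 to 1.09).

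Fabp1, the liver-type carrier, was seen almost only in lung and liver. WT AMs held it at 941 CPM (929 to 952), 18.7-fold above WT KCs at 50.2 CPM, with 67.2 CPM in Nr1h3fl/fl KCs. Outside lung and liver it came to 7 UMIs in WT SMs, 1 UMI in Zeb2KO SMs, 3 and 5 UMIs in WT and Zeb2KO CMs and 0 in both microglia libraries. Zeb2KO AMs held it at 345 CPM and Zeb2KO KCs at 36.8 CPM.

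Fabp1 in liver has a second possible source, since hepatocytes make it in bulk: 6 and 5 hepatocyte barcodes in the WT and Zeb2KO liver libraries held 41949 and 38738 CPM. In WT liver, 20.4% of KCs (median 5368 UMIs per cell) had a Fabp1 UMI, against 11.97% of the B cells left out of the same library (median 3500 UMIs), and in Zeb2KO liver 15.4% of KCs (5880 UMIs) against 7.46% of B cells (4013 UMIs). These B cells are an imperfect reference, since they also held Clec4f, the marker the KCs were sorted on, at 3893 CPM in WT and 1273 CPM in Zeb2KO, beside 6057 and 2101 CPM in KCs. Thinned to 1500 UMIs per cell, the KC shares were 6.82% and 4.67%. Set beside albumin (Alb), a transcript of hepatocytes, WT KCs held 2.32 Fabp1 UMIs per Alb UMI (2.09 to 2.57), B cells 2.25 (0.931 to 5.98) and blood endothelium 1.94 (1.05 to 3.72). In Zeb2KO liver these were 2.33 (2.07 to 2.62), 2.40 (0.787 to 8.70) and 2.95 (2.07 to 4.30), and in Nr1h3fl/fl liver 1.86 (1.69 to 2.04), 1.67 (0.324 to 10.7) and 2.50 (1.05 to 6.56). The intervals overlapped within each library but are wide outside KCs, and the hepatocyte barcodes themselves held 17.4 in WT and 20.1 in Zeb2KO. Both this measure and the next were chosen after the data were seen, because Trf, which made up most of the fixed hepatocyte list, was also high in macs of other tissues. Beside the 9 genes of that list without Trf, KCs again overlapped B cells and endothelium, except that in the Nr1h3fl/fl library endothelium stood at 1.25 (0.615 to 2.58) and KCs at 0.530 (0.494 to 0.567). The KC values also include a small kept cluster led by Cps1 and Adh1, with raised hepatocyte genes. It held 158 of the 1227 Fabp1 UMIs of WT KCs and 139 of the 958 of Zeb2KO KCs, and stood at 448 CPM in the Nr1h3fl/fl library. How much of the KC level was free hepatocyte RNA was not tested.

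Fabp4, the fat cell form, was highest in AMs among WT macs and highest in SMs among Zeb2KO macs. WT AMs held 397 CPM (390 to 405), 5.87-fold above WT SMs at 67.7 CPM (62.1 to 73.6), with WT KCs at 47.5 CPM, Nr1h3fl/fl KCs at 17.3 CPM, CMs at 4.30 CPM and 0 UMIs in microglia. In Zeb2KO macs SMs held 179 CPM (170 to 187), AMs 75.8 CPM (73.1 to 78.7), KCs 53.0 CPM and CMs 1.87 CPM, again with 0 UMIs in microglia. The top 2 tissues thus changed places between the genotypes, with intervals that did not overlap in either.

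Fabp5 was detected in every library and was highest in AMs. WT levels ran from 733 CPM in AMs to 139 CPM in CMs, 94.5 CPM in SMs, 34.4 CPM in KCs (26.2 CPM in Nr1h3fl/fl KCs) and 8.19 CPM in microglia. Zeb2KO levels kept that order, at 1554 CPM in AMs, 165 CPM in CMs, 100.3 CPM in SMs, 32.7 CPM in KCs and 6.62 CPM in microglia. In CMs a few cells carried much of it: the highest single cell held 222 UMIs in WT and 244 in Zeb2KO, and the 10% of cells with most Fabp5 UMIs held 61.0% and 74.5% of them.

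Plin2, the droplet coat, was detected in every library, and AMs again led. WT levels were 906 CPM in AMs, 269 CPM in CMs, 141 CPM in KCs (131 CPM in Nr1h3fl/fl KCs), 135 CPM in SMs and 53.1 CPM in microglia, with KCs and SMs not differing beyond counting error. Zeb2KO levels were 717 CPM in AMs, 243 CPM in CMs, 142 CPM in KCs, 155 CPM in SMs and 33.0 CPM in microglia. In AMs 92.9% of WT and 91.9% of Zeb2KO cells held a Plin2 UMI, 71.4% and 61.2% after thinning.

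Pnpla2, the lipase that acts on the droplets Plin2 coats, did not follow Plin2. Its WT level was highest in microglia, at 67.9 CPM, and near equal in KCs (50.8 CPM), AMs (50.3 CPM) and SMs (50.1 CPM), whose intervals overlapped, with CMs at 32.7 CPM and Nr1h3fl/fl KCs at 45.1 CPM. Zeb2KO levels were 40.0 CPM in microglia, 60.4 CPM in KCs, 42.9 CPM in AMs, 52.0 CPM in SMs and 34.0 CPM in CMs. Its range over the tissues was the narrowest of the 6 members in WT.

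**Figure D1:**
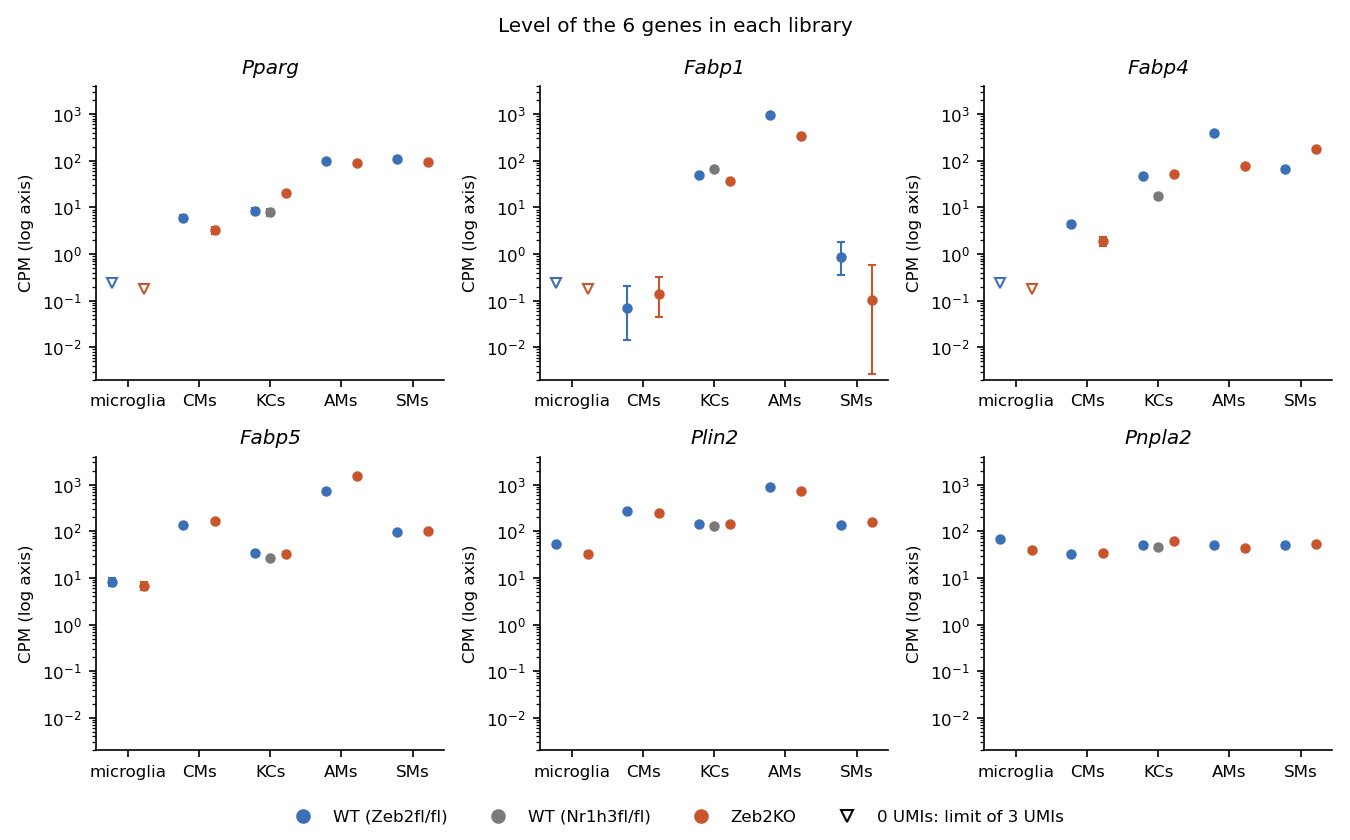
Level of each member in the 11 libraries in CPM on a log scale, 1 panel per gene and 1 point per library, with 95% exact Poisson intervals as bars where wider than the point and open triangles at the limit that 0 UMIs allow. AMs hold the highest WT point of Fabp1 (941 CPM), Fabp4 (397 CPM), Fabp5 (733 CPM) and Plin2 (906 CPM), SMs hold that of Pparg (108 CPM) with AMs close below (98.4 CPM), and the Zeb2KO SM point of Fabp4 (179 CPM) stands above the Zeb2KO AM point (75.8 CPM).

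The comparison of genotypes asked which members differed between Zeb2KO and WT macs of a tissue. A gene was considered where the higher library had at least 20 CPM, and called changed where its 2 values of CPM plus 1 differed by 1 or more on the log2 scale; with 1 library a side these are descriptions of the libraries, with no test. AMs, SMs and KCs held a called member, and CMs and microglia held none.

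AMs held 3 of the called members. Fabp4 was 5.24-fold lower in Zeb2KO AMs (log2 ratio -2.37, counting interval -2.45 to -2.33) and Fabp1 2.72-fold lower (-1.44, -1.48 to -1.42). Fabp5 was 2.12-fold higher (1.08, 1.06 to 1.11), so carriers of one family moved in opposite directions in the same library pair. Of the 5812 genes considered in AMs 11.7% were called, 4.35% higher and 7.33% lower, against 1 higher and 2 lower among the 6 members. Pparg (-0.11), Plin2 (-0.34) and Pnpla2 (-0.22) were not called, and with TMM factors, a scaling that assumes most genes are equal, they came to 0.17, -0.06 and 0.05, so Pparg and Pnpla2 changed sign.

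The scaling shifted AMs most: the considered genes had a median log2 ratio of -0.31 there and -0.09 to 0.05 in the other tissues. With TMM factors the median was -0.04 and the called genes split into 374 higher and 195 lower, in place of 253 and 426. The called members stayed called, at -2.10 for Fabp4, -1.17 for Fabp1 and 1.36 for Fabp5.

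In cells, the share of AMs with a Fabp1 UMI was 79.8% in WT and 48.5% in Zeb2KO, although Zeb2KO AMs were deeper (median 5682 against 3587 UMIs), and thinning to 1500 UMIs gave 59.4% and 28.7%. For Fabp4 the shares were 52.6% and 17.7%, thinned 33.6% and 8.42%, and for Fabp5 79.3% and 88.0%, thinned 55.3% and 67.3%. A lymphocyte cluster was left out of the same libraries (14 WT and 18 Zeb2KO cells, median 2690 and 4610.5 UMIs). Its shares were 21.4% and 27.8% for Fabp1, 35.7% and 16.7% for Fabp4 and 42.9% and 66.7% for Fabp5. These cells had passed the AM sort, so they are an imperfect reference, and whether they show free RNA alone was not tested. The Zeb2KO AM share for Fabp4 lay inside the wide interval of that cluster (3.58% to 41.4%), which rests on few cells. Its level in Zeb2KO AMs (75.8 CPM) lay inside that of the lymphocyte cluster (79.4 CPM, 31.9 to 164, from 7 UMIs). With so few cells these Zeb2KO levels could not be told apart. In WT the Fabp4 level of AMs (397 CPM, 390 to 405) lay above that of the lymphocyte cluster (122 CPM, 44.9 to 267, from 6 UMIs). The 10% of Zeb2KO AMs with most of each held 82.9% of Fabp4 and 60.9% of Fabp1 UMIs, against 50.7% and 41.8% in WT. This measure rises where fewer cells hold a UMI, so it partly restates the lower shares and does not by itself show uneven spread.

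In SMs the 1 called member was Fabp4, and it differed in the opposite direction to AMs. It was 2.64-fold higher in Zeb2KO SMs (log2 ratio 1.39, 1.26 to 1.54, and 1.40 with TMM factors), where 2.35% of the 6169 considered genes were called higher and 3.21% in either direction. Cells with a Fabp4 UMI made up 9.65% of WT and 23.8% of Zeb2KO SMs, thinned 7.72% and 16.9%, with 25.9% and 18.0% of cells too shallow to be thinned. B cells left out of the same libraries had it in 2.38% and 5.39% of cells (median 2080 and 3044 UMIs, against 2207 and 2716 in SMs). Pparg was not called (-0.22), and Fabp5 (0.09), Plin2 (0.20) and Pnpla2 (0.05) differed less; Fabp1 was too low to be considered.

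In KCs the 1 called member was Pparg, 2.41-fold higher in Zeb2KO KCs (1.18, 1.03 to 1.51, and 1.16 with TMM factors) and 2.56-fold above the Nr1h3fl/fl WT library (1.25). The interval is of the ratio without the added 1 CPM. It therefore does not show that the called value of 1.18 lies above the cutoff of 1 beyond counting error. Its 20.04 CPM in Zeb2KO KCs sits just at the 20 CPM that a gene needed to be considered, where 3.41% of 5394 genes were called higher and 4.62% in either direction. A Pparg UMI was seen in 4.75% of WT and 11.3% of Zeb2KO KCs, thinned 1.25% and 2.97%. B cells of the same libraries had it in 2.11% and 8.21% of cells (median 3500 and 4013 UMIs), in the cluster that also held Clec4f. The Pparg level of these B cells was 4.33 CPM in WT (0.892 to 12.6, from 3 UMIs). In Zeb2KO it was 21.4 CPM (11.96 to 35.2, from 15 UMIs). These intervals include the KC levels of the same libraries, 8.30 CPM in WT and 20.04 CPM in Zeb2KO. What part RNA shared between the cells of a library had in the Pparg levels was not tested. Fabp1 (-0.44), Pnpla2 (0.25), Fabp4 (0.16), Fabp5 (-0.07) and Plin2 (0.01) were not called.

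The 2 WT liver libraries were also compared, with floxed allele and library not told apart. The instrument and Cell Ranger version of the Nr1h3fl/fl library are given only through the general statement for KCs, so a difference in either was not tested. Fabp4 was 2.75-fold lower in Nr1h3fl/fl than in Zeb2fl/fl KCs (-1.41, -1.64 to -1.28), where 1.37% of 5552 genes were called and 0.847% called lower, and so it was called 3.06-fold higher in Zeb2KO KCs against the Nr1h3fl/fl library (1.56) but not against the Zeb2fl/fl one. The difference between the WT libraries was -0.20, and not called, once 2 small clusters described with the KC clusters were taken out. Against the Nr1h3fl/fl library 2 of the 6 members were called, Pparg and Fabp4, both higher, and of 5753 genes 8.24% were called in either direction and 4.26% higher. Fabp1 differed between the WT libraries (0.41) by about as much as between genotypes (-0.44) and Fabp5 by more (-0.38 beside -0.07), whereas Pparg differed by -0.08 between the WT libraries and by 1.18 between genotypes.

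In microglia and CMs no considered member was called, where 8.34% and 1.56% of genes were. Only Plin2 (-0.67, -0.85 to -0.52) and Pnpla2 (-0.75, -0.91 to -0.61) were considered in microglia, both lower in Zeb2KO by more than counting error and by more than the median of -0.09. In CMs Fabp5 (0.25), Plin2 (-0.14) and Pnpla2 (0.05) were considered. These ratios are over whole libraries. Of Zeb2KO CMs 22.9% lay in clusters whose share of Zeb2KO cells was at least 9 times their share of WT cells, against 98.6% of Zeb2KO microglia.

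**Figure D2:**
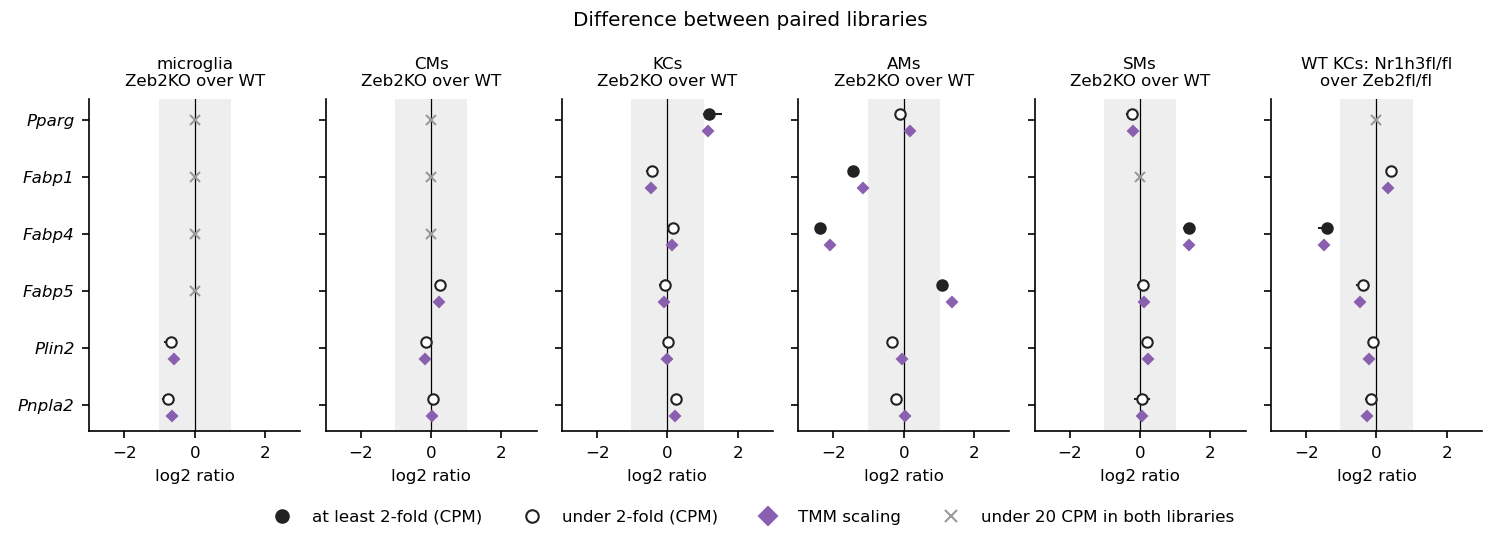
Log2 ratio of CPM plus 1 of each member, Zeb2KO over WT in 5 panels and, in the last panel, WT KCs of Nr1h3fl/fl over those of Zeb2fl/fl mice; circles are scaled by total UMIs (filled where called, bars as counting intervals) and diamonds by TMM factors, the grey band spans -1 to 1, and crosses at 0 mark genes under 20 CPM in both libraries, with no ratio drawn. Fabp4 stands at -2.37 in AMs and at 1.39 in SMs, Fabp5 at 1.08 and Fabp1 at -1.44 in AMs, Pparg at 1.18 in KCs and Fabp4 at -1.41 between the WT KC libraries, and no other circle lies outside the band.

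Within AMs the levels varied with the cluster a cell fell in (clusters were built without the members and are named by their leading genes; as they come from these cells, values across them are descriptions). The 3 largest WT clusters held Fabp1 at 845 to 1298 CPM, Fabp4 at 337 to 581 CPM and Fabp5 at 614 to 1042 CPM, with the top of all 3 in the cluster led by Clec4b1 and Ear1. Of the Zeb2KO AMs 90.9% lay in 4 clusters that were almost free of WT cells, and these differed widely from each other.

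The Zeb2KO cluster led by Spag11b (1713 cells) held Fabp1 at 1132 CPM and Fabp5 at 802 CPM, both within the range of the 3 largest WT clusters, while its Fabp4 was 123 CPM. Its Zeb2 level was 262 CPM, within the 244 to 390 CPM of the 3 largest WT clusters, and Epcam, by which the study tells AMs that lost Zeb2, stood at 75.8 CPM, beside 19.6 to 34.3 CPM in those WT clusters. The cluster led by Ltb and Neurl3 (2149 cells) held Fabp1 at 213 CPM, Fabp4 at 82.8 CPM and Fabp5 at 1419 CPM. The cluster led by Krt6b (1578 cells) held Fabp1 at 70.6 CPM, Fabp4 at 47.2 CPM and Fabp5 at 2394 CPM. Zeb2 stood at 578 and 558 CPM and Epcam at 438 and 446 CPM in the Ltb and Krt6b clusters, so the 2 clusters with the most Zeb2 and Epcam were low in Fabp1 and high in Fabp5, while Fabp4 was low in all 3. Fabp1 was thus spread 16.0-fold over the Zeb2KO clusters, while Fabp4 lay below the 3 largest WT clusters in each. The small cluster led by C1qa (241 Zeb2KO cells, with antigen presentation genes) was low in all 3 carriers, at 81.2 CPM for Fabp1, 22.0 CPM for Fabp4 and 448 CPM for Fabp5, and in Pparg at 40.8 CPM. Pparg kept to 92.1 to 99.0 CPM in the other 3 of these Zeb2KO clusters, beside 94.5 to 102 CPM in the 3 largest WT clusters. Plin2 stood at 626 to 797 CPM in the 4 Zeb2KO clusters and at 830 to 998 CPM in those WT clusters.

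Clusters that held cells of both genotypes gave the comparison within a cell state. Among cycling cells (221 WT and 295 Zeb2KO), Fabp1 was 550 CPM in WT and 334 CPM in Zeb2KO, Fabp4 207 and 36.8 CPM and Fabp5 556 and 867 CPM. In the cluster led by DNA replication genes (296 and 80 cells), Fabp1 was 815 and 1077 CPM, Fabp4 279 and 82.0 CPM and Fabp5 688 and 918 CPM. In the Spag11b cluster, where only 57 cells were WT, Fabp1 was 820 and 1132 CPM and Fabp4 297 and 123 CPM. In the cluster led by the stress genes Hspa1b and Hspa1a (44 WT and 81 Zeb2KO cells) Fabp1 was 328 and 119 CPM, Fabp4 662 and 251 CPM and Fabp5 1717 and 1720 CPM. In the WT cluster led by Cpne5, which held 44 Zeb2KO cells, Fabp1 was 845 and 818 CPM, Fabp4 337 and 152 CPM and Fabp5 629 and 593 CPM, with overlapping intervals for Fabp1 and Fabp5. Fabp4 was lower in Zeb2KO in each of these 5 clusters, whereas Fabp1 was lower beyond counting error in 2 of them and higher beyond it in the Spag11b and DNA replication clusters.

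**Figure D3:**
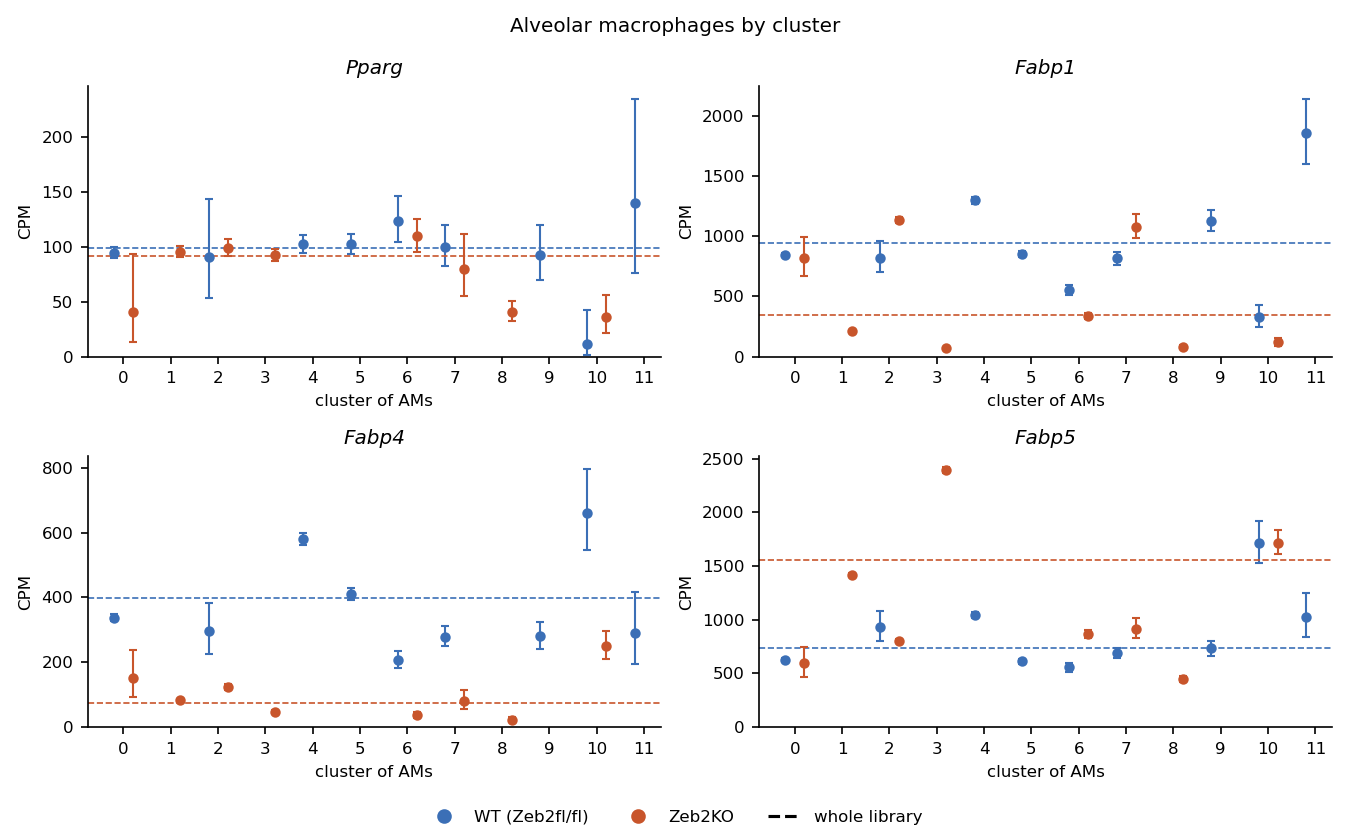
Level of Pparg, Fabp1, Fabp4 and Fabp5 in AM clusters, in CPM, 1 point per numbered cluster and genotype with 95% exact Poisson intervals and dashed lines at the level of each whole library. Fabp1 ranges from 70.6 to 1132 CPM over the Zeb2KO clusters, and Fabp4 in the large Zeb2KO clusters (47.2 to 123 CPM) lies below the 3 largest WT clusters (337 to 581 CPM).

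Neutrophil transcripts moved with these clusters. Summed over 8 neutrophil markers AMs held 47.4 CPM in WT and 23791.5 CPM in Zeb2KO, with 4 and 6 of the 8 detected and 2 and 4 at 20 CPM or more; S100a8 (14194 CPM) and S100a9 (9361 CPM) made up nearly all of it, while Camp and Ngp had 0 UMIs in both. S100a8 stood at 18433 CPM in the Ltb cluster, 20093 CPM in the Krt6b cluster, 7650 CPM in the C1qa cluster and 560 CPM in the Spag11b cluster, so the clusters low in Fabp1 were those high in S100a8. What part neutrophil RNA had in the levels of the members was not tested. AM markers themselves moved in both directions, Ear1 from 1102 CPM in WT to 185 CPM in Zeb2KO, Ear2 from 2470 to 906 CPM, Krt79 from 575 to 159 CPM, Marco from 186 to 597 CPM and Chil3 from 5761 to 20630 CPM.

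In the same cells, thinned to 1500 UMIs, Fabp4 was seen in 33.0% of WT AMs with Fabp1 and in 33.5% of those without it, and Fabp5 in 58.8% of WT AMs with Fabp4 and in 54.1% of those without it. In Zeb2KO AMs Fabp5 was seen in 59.5% of cells with Fabp1 and in 70.4% of cells without it, and Fabp4 in 11.1% and 7.35%, while Fabp5 was seen in 77.4% of cells with Fabp4 and in 66.3% of cells without it.

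In SMs Fabp4 was higher in Zeb2KO in each of the 7 clusters with at least 30 cells of both genotypes, from 34.3 and 70.8 CPM in WT and Zeb2KO in the cluster with the lowest Zeb2KO level to 22.3 and 268 CPM in the cluster led by Arc and Nfasc, to which WT gave 30 cells and Zeb2KO 1605. In the clusters with most cells of both genotypes, one led by Ppbp (118 and 336 cells) stood at 48.3 and 138 CPM and one led by Fcer2a (215 and 143 cells) at 44.8 and 115 CPM. The leading genes of the Fcer2a cluster are B cell genes; without it the log2 ratio of Fabp4 in SMs was 1.37. In the other 5 clusters at least 1 genotype gave fewer than 80 cells, with 2 to 20 Fabp4 UMIs there. The difference did not exceed counting error in all of these. The level went the other way in a cluster of 706 Zeb2KO cells led by S100a8, S100a9 and Camp, with Fabp4 at 18.0 CPM and Pparg at 53.2 CPM, below the 67.7 and 108 CPM of WT SMs; WT gave it 9 cells with 4 Fabp4 UMIs. Zeb2 stood at 1502 CPM and Siglecf, one of the genes by which the study tells Zeb2-deleted SMs, at 47.5 CPM in that cluster, against 753 and 3.90 CPM in the Arc cluster and 737 CPM of Zeb2 in WT SMs. In that cluster S100a8 stood at 465 CPM, beside 182 CPM in WT SMs. The SM markers Spic and Vcam1 stood at 1103 and 2634 CPM, beside 1633 and 6813 CPM in WT SMs. Macrophage markers had a mean log2 fold over the other spleen cells of 0.145 there and of 0.270 in the Arc cluster. Its leading genes include neutrophil genes, while over all SMs 8 neutrophil markers summed to 370 CPM in WT and 252 CPM in Zeb2KO. What part neutrophil RNA or cells had in the levels of that cluster was not tested. Without it and the Fcer2a cluster, a choice made after the data were seen, Fabp4 stood at 69.8 CPM in WT and 245 CPM in Zeb2KO (log2 ratio 1.79) and Pparg at 109.6 and 108 CPM (-0.02). That choice takes out the Zeb2KO cluster with raised Zeb2 and Siglecf, 2 of the genes by which the study tells deleted SMs. The 1.79 therefore does not describe such cells. Cells left out as other types moved the same way, with 9.89 and 17.3 CPM in B cells and 40.2 and 108 CPM in erythroid cells, and what part RNA shared between the cells of a library had in either was not tested.

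Among the cells kept as KCs in the Zeb2fl/fl and Zeb2KO libraries, 2 small clusters carried much of Fabp4 and Fabp5. A cluster led by Alox15 and Prg4 (69 WT and 47 Zeb2KO cells) held Fabp4 at 697 and 805 CPM and Fabp5 at 448 and 402 CPM. Its Clec4f was at 486 and 380 CPM, beside 6057 and 2101 CPM over all KCs, and its leading genes, among them Fn1, Thbs1 and Serpinb2, are not those of KCs, so these cells may not be KCs. A cluster with raised endothelial genes (145 and 82 cells, 46 of the Nr1h3fl/fl library) held Fabp4 at 162 and 199 CPM, and 231 CPM in Nr1h3fl/fl. Together the 2 clusters held 68.0% of the Fabp4 UMIs of WT KCs, 44.4% of those of Zeb2KO KCs and 19.0% of those of Nr1h3fl/fl KCs. For Fabp5 the shares were 55.8%, 33.4% and 6.05%, and in the Nr1h3fl/fl library its highest cluster was one led by Cd209a and Ccl22 (68 cells, 287 CPM), which stood at 32.7 CPM in Zeb2fl/fl WT and 41.0 CPM in Zeb2KO. The leading genes of that cluster, Flt3 and Ccl17 among them, are known from dendritic cells, so it may not hold KCs alone, although Clec4f was at 2966 CPM in it, beside 4172 CPM over all KCs of that library. It held 25% of the Fabp5 UMIs of the Nr1h3fl/fl library, which stood at 20.1 CPM without it. Blood endothelium left out of the same libraries held Fabp4 at 711 and 624 CPM in WT and Zeb2KO.

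Without the Alox15 cluster and the one with raised endothelial genes, Fabp4 stood at 16.5 CPM in Zeb2fl/fl WT, 14.2 CPM in Nr1h3fl/fl WT and 30.9 CPM in Zeb2KO KCs. The difference between the WT libraries then shrank to -0.20 and that between genotypes grew to 0.87, still under 1. Fabp5 stood at 16.5, 25.01 and 22.9 CPM, so that over Zeb2fl/fl WT its log2 ratio was 0.57 in Nr1h3fl/fl (-0.38 with all KCs) and 0.45 in Zeb2KO (-0.07 with all KCs), and Pparg was still called. The 25.01 CPM of Fabp5 still included the Cd209a cluster described above, and no value with that cluster out as well was computed. Pparg was highest in the Zeb2KO cluster led by Siglecf (1943 cells, with no Zeb2fl/fl WT cell), at 28.4 CPM, where Zeb2 stood at 1211 CPM beside 387 CPM in WT KCs, and the clusters set apart from WT, which held 75.1% of Zeb2KO KCs, stood at 23.7 CPM beside 10.0 CPM in the rest.

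**Figure D4:**
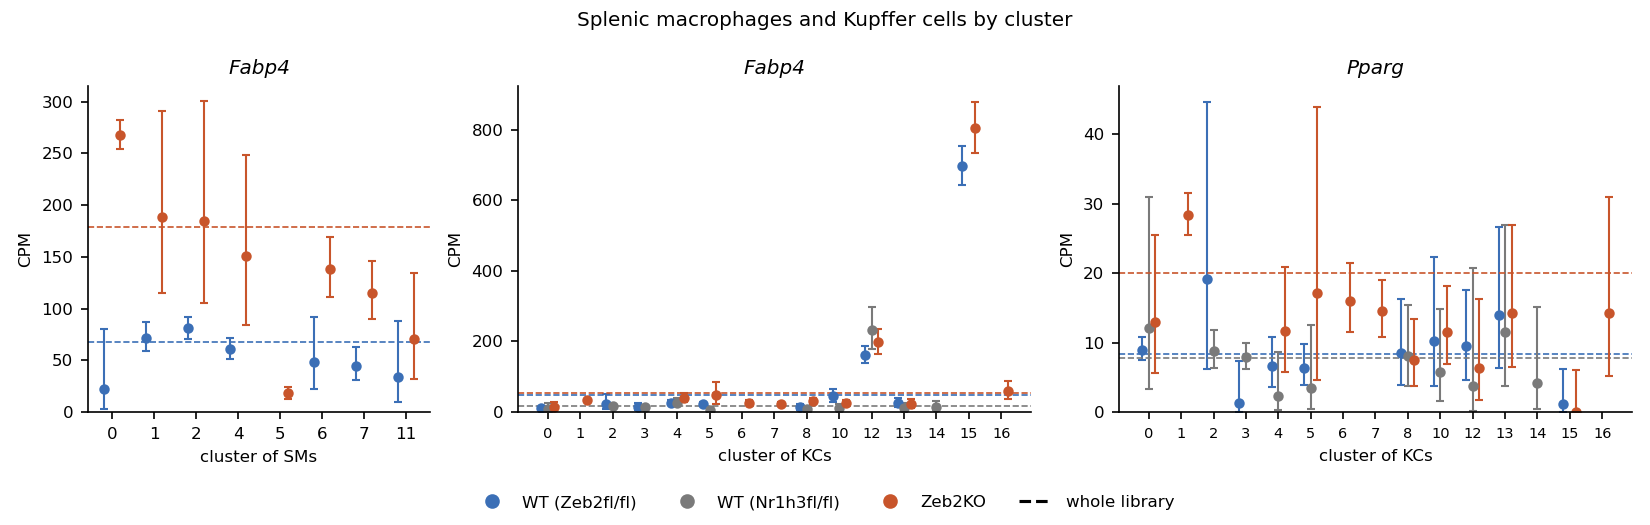
Fabp4 in SM clusters and Fabp4 and Pparg in KC clusters, in CPM, 1 point per numbered cluster and library with 95% exact Poisson intervals and dashed lines at the level of each whole library. Fabp4 lies higher in Zeb2KO in each SM cluster with at least 30 cells of both genotypes, though not beyond counting error in all of them. It lies lowest in the Zeb2KO cluster numbered 5 (18.0 CPM), led by S100a8. Among the liver clusters the one led by Alox15, whose Clec4f is low, stands highest in Fabp4 (697 CPM in WT and 805 CPM in Zeb2KO).

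Microglia and CMs also varied inside a library. Fabp5 in microglia was highest in 2 small clusters, at 56.1 CPM in 114 Zeb2KO cells led by Gpnmb and Spp1 and at 60.1 CPM in 95 WT cells of a cluster whose leading genes, among them Pf4, Ms4a7 and Mcpt8, mark other cells of brain or blood, where Plin2 was also highest, at 81.5 and 97.0 CPM. P2ry12, a microglia marker, was at 1559 CPM in those WT cells, beside 3934 and 5248 CPM in the other WT clusters, so they may not all be microglia; without that cluster WT stood at 5.92 CPM of Fabp5 and Zeb2KO at 6.34 CPM. The lowest clusters held Fabp5 at 5.82 CPM in WT and 3.75 CPM in Zeb2KO. In CMs Fabp5 ran from 41.2 to 298 CPM over WT clusters and from 38.1 to 326 CPM over Zeb2KO clusters. In the Zeb2KO CM clusters set apart from WT (885 cells) it stood at 251 CPM (240 to 262). The other Zeb2KO CMs held 140 CPM and all WT CMs 139 CPM. Plin2 was 229 CPM in the clusters set apart and 248 CPM in the other Zeb2KO CMs, and Pnpla2 36.2 and 33.4 CPM.

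The other genes of the pathway were read from 8 lists with 104 genes that do not include the members. In AMs 4 were higher and 5 lower of 55 considered (median log2 ratio -0.29, beside -0.31 over all genes), against 2 higher and 1 lower of 41 in microglia, 1 higher of 43 in SMs, 1 lower of 34 in KCs and none of 35 in CMs. Of all considered genes 11.7% were called in AMs, 8.34% in microglia, 3.21% in SMs, 4.62% in KCs and 1.56% in CMs. The shares called in AMs were 7.27% higher and 9.09% lower, beside 4.35% and 7.33% of all considered genes. With TMM factors 6 of 56 were higher and 1 lower.

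The higher genes in AMs were G0s2, Pdk4, Acot1 and Dgat2. G0s2, the inhibitor of the lipase that Pnpla2 encodes, went from 44.6 CPM in WT to 701 CPM in Zeb2KO AMs (log2 ratio 3.94), with Pnpla2 itself not called. Pdk4, a kinase that inhibits pyruvate dehydrogenase, was 8.27 and 75.2 CPM (3.04), Acot1, a PPAR-induced thioesterase, 48.8 and 220 CPM (2.15), and Dgat2, which makes triglyceride, 36.0 and 132 CPM (1.84). Each of these 4 was also called with TMM factors.

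The lower genes in AMs were Ppargc1b, a PPAR coactivator (32.6 and 9.01 CPM, -1.75), Angptl4, a secreted lipase inhibitor (72.9 and 30.5 CPM, -1.23), Acsl4, a fatty acid CoA ligase (52.1 and 22.4 CPM, -1.18), Lpin1, which makes diglyceride (316 and 143 CPM, -1.14) and the droplet protein Cidec (340 and 156 CPM, -1.11). Only Ppargc1b stayed called with TMM factors (-1.49), the others coming to -0.96, -0.91, -0.86 and -0.84 in that order. Of the 4 considered genes of the list of other PPAR-induced genes 2 were higher and 1 lower, with Pparg not called.

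In the other tissues the droplet protein Plin3 was higher in Zeb2KO microglia (15.6 and 64.0 CPM, 1.97) and SMs (14.0 and 33.1 CPM, 1.19). Mgll, which ends triglyceride breakdown, was higher in Zeb2KO microglia (88.4 and 234 CPM, 1.39) and Acsl4 lower (22.9 and 10.2 CPM, -1.09). Fabp7, the brain-type carrier, was lower in Zeb2KO KCs (934 and 403 CPM, -1.21), and also against the Nr1h3fl/fl library (854 CPM, -1.08). No CM gene of the lists was called.

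**Figure D5:**
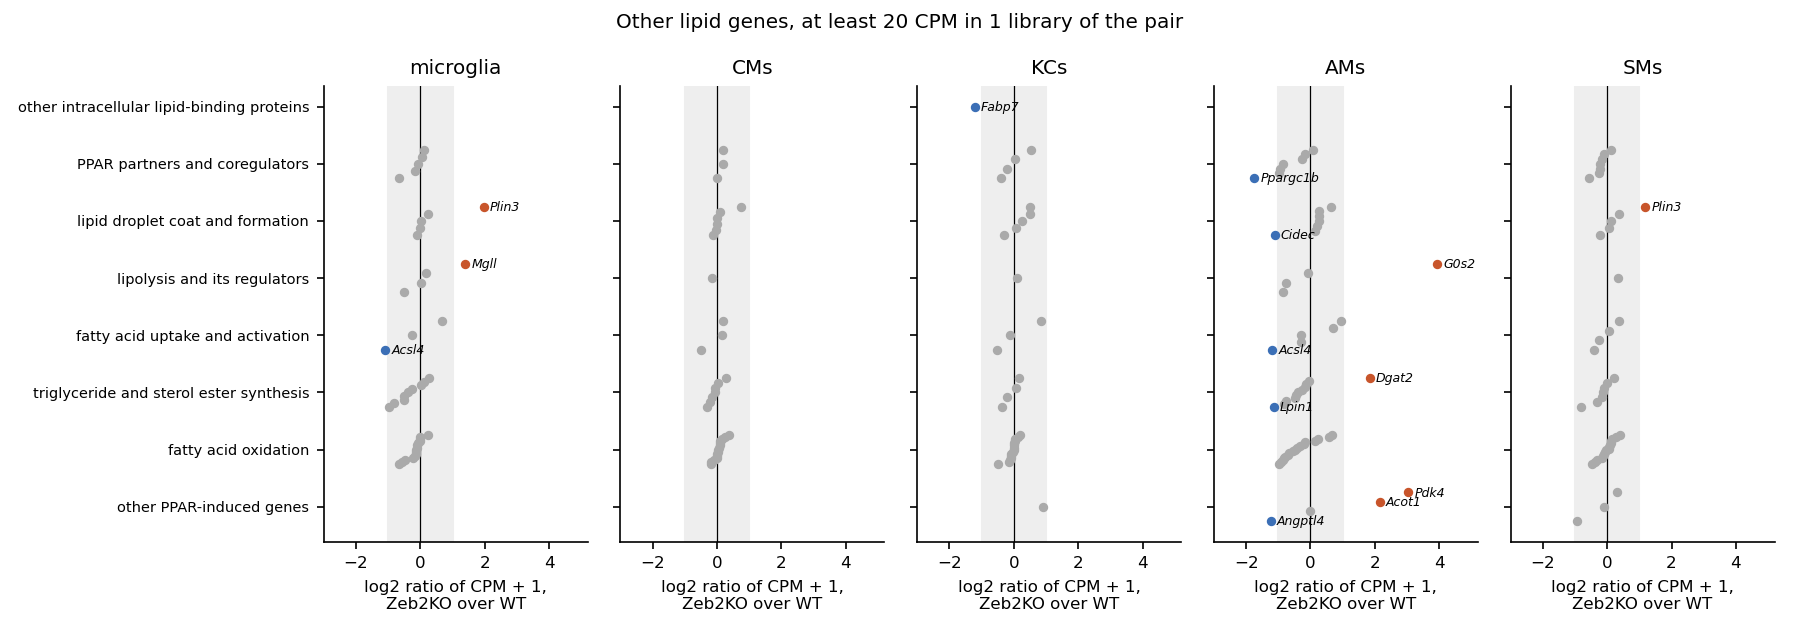
Log2 ratio of CPM plus 1, Zeb2KO over WT, of the genes of the pathway lists in the 5 tissues, 1 point per gene of at least 20 CPM in either library, with the grey band from -1 to 1 and called genes coloured and named. G0s2 stands at 3.94, Pdk4 at 3.04 and Acot1 at 2.15 in AMs, and the CM points all lie within the band.

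Whether any gene shifted alike in the 5 tissues was tested on the counts of all genes, summed per library, with the tissue as a block (edgeR quasi-likelihood test, Benjamini-Hochberg adjusted p, 5 pairs). None of 14051 genes passed 0.05 (0% called, smallest adjusted p 0.0877), while 1593 (11.3%) had an unadjusted p under 0.05, and DESeq2 called 355 of 20153 (1.76%). No member passed with either tool. Fabp1 had the largest fitted log2 change, -0.81 ± 0.35 (SE, 5 pairs fitted, edgeR adjusted p 0.467), followed by Fabp4 at -0.44 ± 0.61 (edgeR adjusted p 0.804), Fabp5 at 0.27 ± 0.24 (0.683), Plin2 at -0.13 ± 0.13 (0.730), Pparg at 0.07 ± 0.34 (0.958) and Pnpla2 at -0.06 ± 0.14 (0.883). Each SE was derived from the change and its F statistic. Fabp1, Fabp4 and Pparg had 0 UMIs in both microglia libraries, so that pair told nothing about them. Fabp1 had at most 7 UMIs in any CM or SM library, so its value rests mainly on lung and liver. The change of Fabp4 depended on the pairs used, at 0.18 without the lung pair and -1.08 without the spleen pair.

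Genes most alike to each member across the 11 libraries, by Pearson correlation of log2(CPM plus 1) over 8033 genes, were Tkt, Syne2 and Foxn2 for Pparg (r = 0.99 to 0.96), Fam96a and Fam69a for Fabp1 (0.97 both), Gm10320, Gm10269 and Etfb for Fabp4 (0.98 to 0.97), Anxa11, Mob3b and Hmgn5 for Fabp5 (0.996 to 0.965), Cyb5r3, Calm3 and Snrpf for Plin2 (0.98 to 0.97) and Proser1, Twistnb and Fam192a for Pnpla2 (0.91 to 0.85). A further gene alike to Fabp1, Eif2s3y (0.96), is Y-linked. Among the members Fabp5 and Plin2 (0.96) and Fabp4 and Pparg (0.94) lay closest and Pnpla2 lay apart from all (-0.32 to 0.26). These are descriptions over libraries that share tissue and, as far as the methods state it, instrument within a tissue.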

How the data were processed

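The 11 libraries hold UMI counts per gene and cell, deposited by the authors as whole numbers; per the study's methods Cell Ranger aligned reads to mm10 with STAR and collapsed UMIs. Cells over 3 median absolute deviations from the median in UMIs, genes or mitochondrial share were left out here (4.66% to 9.22% per library). The rest were clustered per tissue (scanpy 1.11.5, leidenalg 0.10.2; 2000 variable genes without the members or the pathway genes, 30 components, 15 neighbours, resolution 0.8), and clusters with markers of other cell types (0% to 22.5% of cells) were left out. No doublet caller was run; leaving out the 5% of cells with most UMIs was an alternative. UMIs of the 8095935 to 43012607 kept per library were summed to CPM. Ratios use CPM plus 1, whereas counting intervals of ratios are computed without the added 1. Intervals are exact (95%) and cover counting error only; a count of 0 allows up to 3 counts. Shares were also computed as the expected share after drawing 1500 UMIs per cell.

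The shift common to the 5 tissues was tested on summed counts with edgeR 4.0.16 (R 4.3.3; quasi-likelihood, TMM, tissue as block), which was tested on simulated data; DESeq2 1.42.0 was an alternative. Labels do not tie numbers to mice, so the tissue pairs the libraries. P-values then rest on the spread between tissues.

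The members and lists were chosen with earlier results of these data known. Text names the members, the 3 genes most like each over the libraries and, of each pathway list, up to 3 genes changed at least 2-fold per tissue. A few values added after the data were seen (clusters left out in liver, more clusters left out and the NextSeq pairs alone) are named as such. 1 gene of the pathway lists is not reported here and is not in their counts. Positions are from GENCODE M21 and promoters from RefSeq.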

Additional observations from a re-analysis of the deposited data

Results flagged for a closer look

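Fabp4 differed in opposite directions in 2 tissues, at a log2 ratio of 1.39 in SMs (67.7 CPM in WT and 179 CPM in Zeb2KO) and of -2.37 in AMs (397 and 75.8 CPM). Within Zeb2KO SMs the largest cluster held Fabp4 at 268 CPM with Zeb2 at 753 CPM, beside 737 CPM of Zeb2 in WT SMs. A cluster led by neutrophil genes held Fabp4 at 18.0 CPM, below WT SMs, with Zeb2 at 1502 CPM. The study tells Zeb2-deleted SMs by higher Zeb2, Siglecf and Epcam, and of these 2 clusters the second was higher in Zeb2 and Siglecf. The rise of Fabp4 in SMs is thus not shown for cells with those marks. Zeb2 counts alone do not show which cells lost the gene. The difference between the tissues was not tested, since each has 1 library per genotype. The CRE is labelled the same in both but is Itgax-cre for AMs and Fcgr1-cre for SMs in the study's methods, and the instruments differed, so CRE, instrument and tissue cannot be told apart.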

How the results depend on the processing

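With 1 library per tissue and genotype, no member's difference within a tissue has a replicate behind it. The tissue pairs are the only block; without that replicate block (tissue pairs ignored) 0 genes shifted across tissues, as with it. The count of genes with a common shift (0) was 355 with DESeq2, 2 with no filter on low counts, 6 with all 11 libraries, 1 with the Nr1h3fl/fl library as liver control, and 0 to 1 leaving out each pair (1 without the spleen pair); no member was among them. In KCs the 1 called member, Pparg, was lost (0) with all barcodes or the cell filter only, where Zeb2KO KCs held 19.5 and 19.7 CPM and the log2 ratio (1.18 and 1.17) was as before, with a pseudocount of 5 CPM (0.91) and with a floor of 50 CPM; with the Nr1h3fl/fl control 2 were called. In CMs Fabp4 was called (1, from 0) with all barcodes (22.0 and 7.64 CPM) and the cell filter only (22.3 and 7.85 CPM). Both settings count the cells left out as other types. Among these, colon blood endothelium held 777 Fabp4 UMIs in WT and 228 in Zeb2KO, beside 185 and 68 in the CMs kept. Pathway counts moved to 5 in microglia, 2 in CMs and 3 in SMs with a floor of 5 CPM, 0 in SMs with a floor of 50 CPM, 2 in KCs and 2 in SMs as a mean over cells, and 3 in KCs with the Nr1h3fl/fl control. The cause was not tested. Fabp4 in KCs (0.16) ran to 0.65 with all barcodes and 0.87 without the 2 clusters named above, chosen after seeing the data. Without the clusters led by other genes in spleen, brain and liver, also chosen after seeing the data, Fabp4 in SMs came to 1.79. The SM cluster with raised Zeb2 and Siglecf was among those taken out. In AMs and SMs the called members stayed called in every alternative run. No called value reversed, but common shifts that passed no test changed sign: Pparg (0.07) ran from -0.31 (without the liver pair) to 0.38 leaving out each pair and was -0.55 with HiSeq pairs only, Fabp4 (-0.44) ran from -1.08 (without the spleen pair) to 0.18 (without the lung pair) and was 0.22 with HiSeq pairs only, and Pnpla2 (-0.06) ran from -0.13 (without the liver pair) to 0.080 (without the brain pair) and was 0.12 with NextSeq pairs only, chosen after seeing the data. Differences within a tissue too small to be called also changed sign, Pparg (0.17) and Pnpla2 (0.05) in AMs with TMM factors, and Fabp5 in KCs (-0.07), which came to 0.20 with all barcodes and 0.45 without the 2 clusters, where the difference of the WT libraries went from -0.38 to 0.57 with the Cd209a cluster still counted. With clusters at a resolution of 0.4 the log2 spread over Zeb2KO AM clusters moved from 3.98 to 4.39 for Fabp1, 3.45 to 4.37 for Fabp4, 1.58 to 1.95 for Pparg and 1.54 to 1.09 for Pnpla2. Low counts limit Pparg in KCs and Fabp1 outside lung and liver.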
